A study of Saccharomyces cerevisiae with 8 samples.

Results

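The comparison described here is between xylose-grown yeast cells carrying extra copies of *AZF1* and cells carrying the empty plasmid, 4 libraries of the 8 in the series. *AZF1* encodes a zinc finger transcription factor. It was placed on a MoBY 2.0 plasmid, a multicopy vector that holds a yeast gene with its flanking sequence and a G418 resistance gene. The libraries are those labelled *AZF1* MoBY (2) and MoBY control (2), and they were taken by their labels with no measured value involved. All come from 1 evolved strain, *Saccharomyces cerevisiae* Y128, which carries xylose isomerase (*CpXylA*), a xylulokinase of *Scheffersomyces stipitis* (*PsXyl3*) and extra transaldolase, and which was evolved to ferment xylose without oxygen and lost *ISU1*, *HOG1*, *GRE3* and *IRA2* function on the way. In the study's methods the host is Y133, a marker-free Y128 derivative, and the labels were kept here. Both groups keep the chromosomal *AZF1* and were grown anaerobically to the exponential phase in rich medium with 2% xylose and 200 mg/L G418. The other 4 libraries, 2 of Y128 (WT) and 2 of *azf1Δ* cells, were grown without plasmid and without G418, and they serve only to set levels beside those of the plasmid strains.

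Azf1 has been linked by earlier work to growth on fermentable and non-fermentable carbon: it is known for activating the G1 cyclin gene *CLN3* on glucose and genes of carbon metabolism and the cell wall on other carbon sources. It has been described as recognising the 8 bases AAAAGAAA. Xylose enters yeast through hexose transporters, is isomerised to xylulose, phosphorylated, and passed through the pentose phosphate pathway into glycolysis, whose end products without oxygen are ethanol and glycerol. The comparison asks which of these and other gene groups move when *AZF1* is raised in a strain that already ferments xylose.

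With extra *AZF1*, genes of heat shock proteins and chaperones, of the cell wall and of drug export rose, as did the transporter genes *HXT3*, *HXT4*, *MEP2* and *ZRT1* and the cyclin gene *CLN3*. Genes of glycolysis, cytosolic ribosomal proteins, tRNA charging and cell separation fell, together with *ALD6* and 5 of 11 genes of the pentose phosphate pathway, while 2 others of that pathway rose. Respiratory chain genes of the nucleus and glycerol genes did not pass the test. Most changes were under 2-fold, and the largest were those of *ANS1*, *CEX1* and *AZF1*, the last 2 being neighbouring genes.

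Levels are in RPKM, reads scaled to gene length and to the mapped reads of the library, as deposited. Changes are the difference of the group means of log2(RPKM + 1), with the standard error (SE) and the Benjamini-Hochberg adjusted p of limma, fitted to 6029 genes, each with 1 RPKM or above in 2 or more of these libraries. A gene was said to have risen or fallen where this adjusted p was under 0.05, which 988 genes met (16.4% of those tested): 616 rose (10.2%) and 372 fell (6.17%). An unadjusted p under 0.05 was reached by 31.8% of the genes, and in 59.0% the 2 libraries of one group lay on the same side of both libraries of the other. These counts rest on having 2 libraries of each group: 527 and 392 genes passed without MoBY control A and B, and 0 without either *AZF1* MoBY library, where 1057 (without A) and 978 (without B) still had an unadjusted p under 0.05. The rises reached further, with 197 genes up 2-fold or more and 18 down 2-fold or more, while the median change over all genes was 0.005. The libraries hold about 6180000 and 6210000 mapped reads in *AZF1* MoBY and 6890000 and 6630000 in MoBY control, as read from the smallest steps of the values. The median gene differed between replicates by 0.11 (log2) with extra *AZF1* and by 0.19 with the empty plasmid. By the study's methods the duplicates were taken on different days, so the spread between replicates includes the day. The labels do not say whether replicates came from separate transformants, so the p-values measure the spread between these libraries. Among *a*-cell markers *MFA2* stood at 635 to 1144 RPKM over the 4 libraries, while the α-cell receptor gene *STE3* stood at 5.86 to 7.95 RPKM.

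*AZF1* itself stood at 13.3 and 14.3 RPKM in MoBY control A and B and at 74.0 and 73.5 RPKM in *AZF1* MoBY A and B. The groups were far apart, with a change of 2.34 ± 0.10 (SE, n = 2 and 2; limma adjusted p = 0.0022), about 5.35 times the control level in RPKM. The neighbouring *CEX1*, which encodes a cytoplasmic factor of tRNA export, changed with it, from 11.2 and 12.6 RPKM to 78.3 and 81.6 RPKM (change 2.65 ± 0.11). *YOR114W*, on the other side of *AZF1*, did not pass the test (−0.28 ± 0.31). Whether the flanking sequence on the plasmid holds *CEX1* is not given in the sources used here. Whether the *CEX1* reads came from the plasmid or from the chromosome was not tested. The G418 resistance gene *kanR*, carried by both plasmids, went the other way, from 68.6 and 90.5 RPKM in MoBY control to 36.5 and 40.2 RPKM in *AZF1* MoBY (change −1.02 ± 0.15, adjusted p = 0.011). Whether the level of *kanR* has a part in any result below was not tested.

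The largest change was that of *ANS1*, a putative cell wall protein gene with a GPI anchor signal. It was read 3 and 1 times in MoBY control A and B and 101 and 91 times in *AZF1* MoBY A and B. Scaled to depth, the ratio of reads was 52.4, with a 95% exact binomial interval from 20.1 to 194 that covers counting error only. Among genes with a RefSeq entry, no overlap with another gene and 10 RPKM or more in one of the groups, the next rises by size after *CEX1* and *AZF1* began with the cell wall mannoprotein gene *CWP1*, which went from 6.87 and 5.86 RPKM to 24.1 and 23.9 RPKM (change 1.77 ± 0.14, adjusted p = 0.0027). The other 6 of the 10 leading rises under these limits were *YDR246W-A*, *HHY1*, *YDR003W-A*, *COA4*, *YGL007C-A* and *YGR146C-A*, with changes from 1.60 to 1.76. All are short, with coding lengths from 87 bp (*YGL007C-A*) to 453 bp (*COA4*), and *YGL007C-A* rested on 11 and 5 reads in the control. *COA4*, which encodes a cytochrome oxidase assembly factor, rested on 9 and 15 reads there.

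*ALD6*, the gene of the cytosolic acetaldehyde dehydrogenase that makes acetate, led the falls. It stood at 187 and 186 RPKM in MoBY control and at 58.9 and 61.4 RPKM in *AZF1* MoBY (change −1.62 ± 0.08, adjusted p = 0.0022). Under the limits given for the rises, which leave out falls at lower levels such as *BNA1* and *NRM1* below, the other 9 leading falls had changes between −1.12 and −1.01: the glycolytic gene *TPI1*, the ribosomal protein genes *RPL22A* and *RPL43B*, the alcohol dehydrogenase gene *ADH1*, the histone gene *HTA2*, the mitotic cyclin gene *CLB2*, *YML053C*, *ARR2* (arsenate reductase) and *DOG1* (2-deoxyglucose-6-phosphate phosphatase). *HTA2* and *DOG1* each have a near-identical copy, *HTA1* and *DOG2*, so reads may be split between copies and their values are uncertain.

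In the reference genome *ANS1* holds 3 matches to AAAAGAAA (searched on both strands) within the 500 bases before its start codon, and *CLN3* holds 2. The matches are shown because *ANS1* had the largest rise and *CLN3* is a reported Azf1 target, and 1 match each of *CWP1*, which also rose, and *ALD6*, which led the falls, stands beside them. Capitals mark the match, which reads TTTCTTTT where it lies on the other strand, and each sequence is 5′ to 3′ on the strand of the gene in the R64 assembly of strain S288C, with RefSeq annotation, which is not the genome used for alignment.
ANS1, minus strand of chrVIII:360511-360540: ttttttttataTTTCTTTTtatgctaacta
ANS1, minus strand of chrVIII:360469-360498: tcgaaaatccaAAAAGAAAgtttcagtcgt
ANS1, minus strand of chrVIII:360370-360399: gatgccaaacgTTTCTTTTgacctctttcc
CLN3, minus strand of chrI:67722-67751: tctatttctctTTTCTTTTctccctctttt
CLN3, minus strand of chrI:67592-67621: actcctctgcaTTTCTTTTctgacccatag
CWP1, plus strand of chrXI:260874-260903: gaaggtgccacAAAAGAAAacaaaaaaaac
ALD6, plus strand of chrXVI:432112-432141: aggcagccgacAAAAGAAAaacgaccgaaa
The *ANS1* matches begin 348, 306 and 207 bases before the start codon, and the *CLN3* matches 220 and 90 bases before it. The single matches of *CWP1* and *ALD6* begin 247 and 465 bases before theirs.

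A match was about as common in all promoters of this length. Of the 5517 protein-coding genes tested, 31.4% held at least 1 match, beside 32.3% of the genes that rose and 33.5% of those that fell. At least 2 matches were held by 8.07% of all genes, 12.6% of those that rose and 8.31% of those that fell. These shares are a description of reference sequence.

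**Figure D1:**
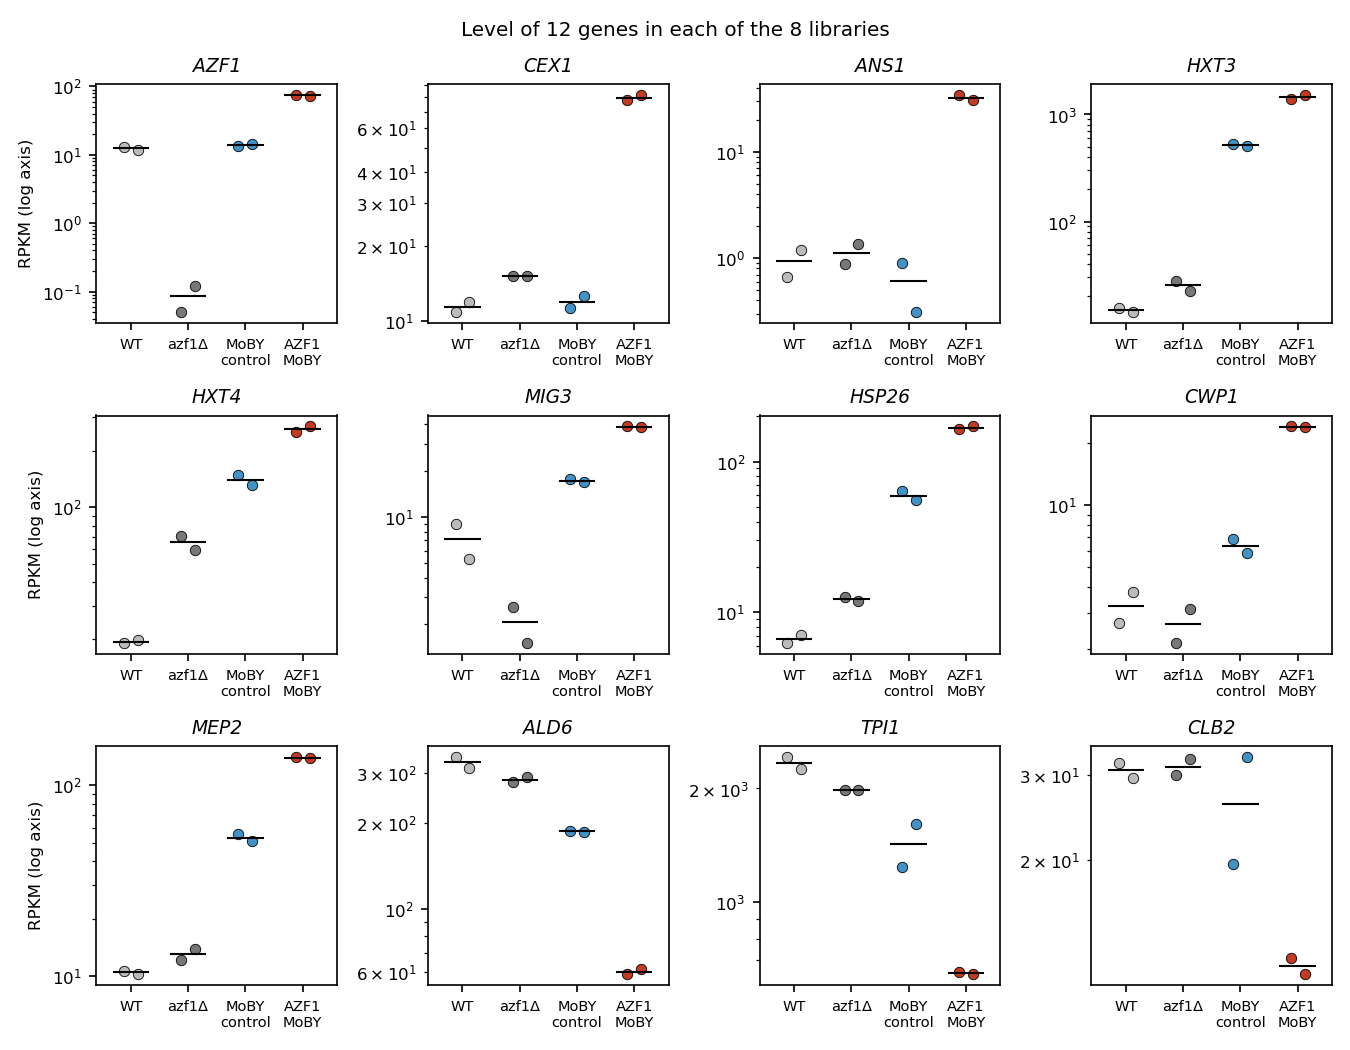
Level in RPKM (log axis) of 12 genes in each of the 8 libraries; points are libraries and the line is the mean of the 2 libraries of a group. In *AZF1*, *CEX1* and *ANS1* the *AZF1* MoBY libraries stand alone, while *HXT3*, *HSP26* and *MEP2* were already higher in MoBY control than in WT.

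Across pathways, among lists of more than 12 genes, those with the largest share of rises were chaperones, cell wall genes and drug pumps, and those with the largest share of falls were ribosomal proteins, glycolysis and tRNA synthetases.

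**Figure D2:**
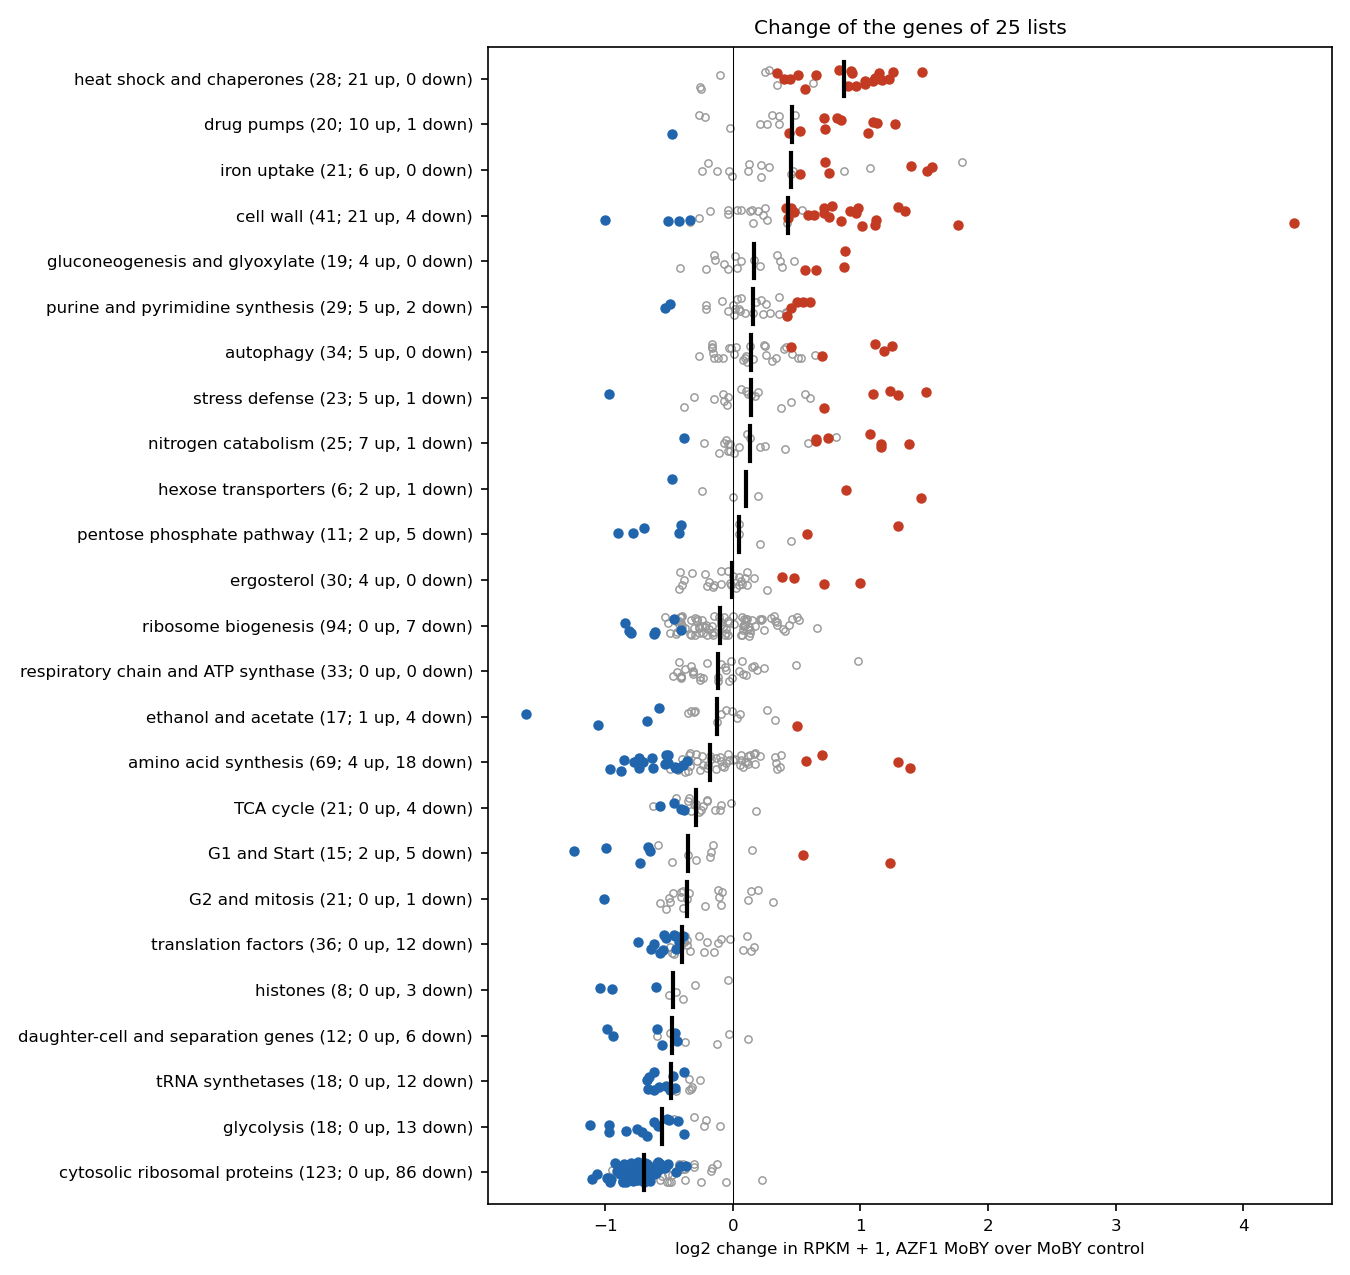
Change in log2(RPKM + 1) of each gene tested in 25 gene lists, ordered by the median (black bar); red and blue points rose and fell, grey rings did not pass the test, and the counts stand beside each name. Chaperones sit farthest to the right (median 0.87) and cytosolic ribosomal proteins farthest to the left (median −0.70).

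Hexose transporters, through which xylose enters, did not move as one group: of 6 tested 2 rose and 1 fell. Of the 18 listed, 8 have deposited values. *HXT3*, a low-affinity glucose transporter gene, stood at 534 and 512 RPKM in MoBY control A and B and at 1399 and 1510 RPKM in *AZF1* MoBY A and B. The change was 1.47 ± 0.09 (adjusted p = 0.0022), and both libraries with extra *AZF1* lay above both controls. *HXT4* rose from 148 and 132 RPKM to 251 and 269 RPKM (change 0.89 ± 0.10, adjusted p = 0.0046). The high-affinity gene *HXT7* fell, from 648 and 576 RPKM to 471 and 410 RPKM (change −0.47 ± 0.11, adjusted p = 0.038), with the reservation that *HXT6* is nearly identical to it and that the call was lost with median-ratio rescaling, without the filter and without the variance trend. *HXT6*, listed at 2647 and 2574 RPKM in MoBY control and 2257 and 2165 RPKM in *AZF1* MoBY, did not pass the test (change −0.24 ± 0.09, adjusted p = 0.13).

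Regulators of glucose sensing changed in both directions, 1 up and 2 down of 19 tested. This share of 15.8% is near the 16.4% of all genes (median change −0.06). *MIG3*, a zinc finger repressor of the Mig family, rose from 17.5 and 16.8 RPKM to 38.9 and 38.6 RPKM (change 1.13 ± 0.11, adjusted p = 0.0035). *MIG1*, the main repressor of glucose-repressed genes, fell from 21.9 and 22.5 RPKM to 13.4 and 14.7 RPKM (change −0.62 ± 0.12, adjusted p = 0.025). *MTH1*, whose protein holds the *HXT* genes repressed when glucose is absent, fell by 0.43 ± 0.10 (adjusted p = 0.041), a call lost under 4 of the 9 alternatives.

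Of the genes that carry xylose to xylulose 5-phosphate, *PsXyl3* rose from 630 and 605 RPKM to 1097 and 1060 RPKM (change 0.80 ± 0.08, adjusted p = 0.0041), while *CpXylA* went from 6747 and 8135 RPKM to 5221 and 4973 RPKM (change −0.54 ± 0.13, adjusted p = 0.041). The *CpXylA* call was kept under 2 of the 6 alternatives that include it. The native xylulokinase gene *XKS1* lay at 6.45 and 6.23 RPKM in the control and 6.41 and 8.34 RPKM with extra *AZF1*, without passing the test. *GRE3*, whose product reduces xylose to xylitol and whose function Y128 lacks, rose by 0.44 ± 0.08 at the level of its transcript.

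The pentose phosphate pathway split, with 5 genes lower and 2 higher of 11. *GND1* (6-phosphogluconate dehydrogenase) went from 509 and 526 RPKM to 276 and 276 RPKM (change −0.90 ± 0.08), and *TAL1* (transaldolase) from 298 and 296 RPKM to 168 and 177 RPKM (change −0.78 ± 0.08), where reads of the added transaldolase gene may be counted too. *RKI1*, *RPE1* and *TKL1*, the ribose-5-phosphate isomerase, ribulose-5-phosphate epimerase and main transketolase genes, fell by 0.70, 0.42 and 0.40. The *RPE1* call was kept under 5 of the 9 alternatives, and the *RKI1* and *TKL1* calls under 7 each. The minor transketolase gene *TKL2* rose instead, from 13.1 and 11.5 RPKM to 31.3 and 31.6 RPKM (change 1.29 ± 0.13, adjusted p = 0.0037). *TKL1* was still expressed at 449 RPKM in both *AZF1* MoBY libraries, far above *TKL2* on this length-scaled measure. *SOL3* (6-phosphogluconolactonase) rose by 0.58 ± 0.08, and the other 4 genes did not pass the test. The 7 calls of the pathway became 5 without the filter, 5 without the variance trend and 4 with the replicate block.

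Glycolysis fell across the pathway, with 13 of 18 genes lower and none higher (median change −0.55). *HXK1* (hexokinase) went from 2288 and 2150 RPKM to 1160 and 1105 RPKM (change −0.97 ± 0.09, adjusted p = 0.0032). *FBA1* (aldolase) went from 2048 and 2062 RPKM to 1144 and 1160 RPKM (change −0.83 ± 0.08), and *TPI1* (triose phosphate isomerase) from 1235 and 1607 RPKM to 653 and 644 RPKM (change −1.12 ± 0.14). All 18 genes had a negative change, the smallest being −0.10. *TDH2* fell by 0.97 ± 0.08, but *TDH1* and *TDH3* are nearly identical to it. The 13 calls became 7 where the variance trend was left out of the fit.

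Downstream of pyruvate, *PDC1* (pyruvate decarboxylase) fell by 0.58 ± 0.08 and *ADH1* by 1.06 ± 0.23 (adjusted p = 0.033). *ADH1* stood at 9410 and 15290 RPKM in MoBY control and at 5753 RPKM in both *AZF1* MoBY libraries, so the control libraries differed from each other, in RPKM, by more than the lower of them did from the other group, and the call was lost without the filter and without the variance trend. The mitochondrial acetaldehyde dehydrogenase gene *ALD4* fell by 0.67 ± 0.12, beside the larger fall of *ALD6* above. *SFA1*, a long-chain alcohol and formaldehyde dehydrogenase gene, rose by 0.50 ± 0.10, and 12 of the 17 genes of ethanol and acetate metabolism did not pass the test. No gene of glycerol metabolism passed it in limma (0 of 11 tested, 0 of them at an unadjusted p under 0.05).

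**Figure D3:**
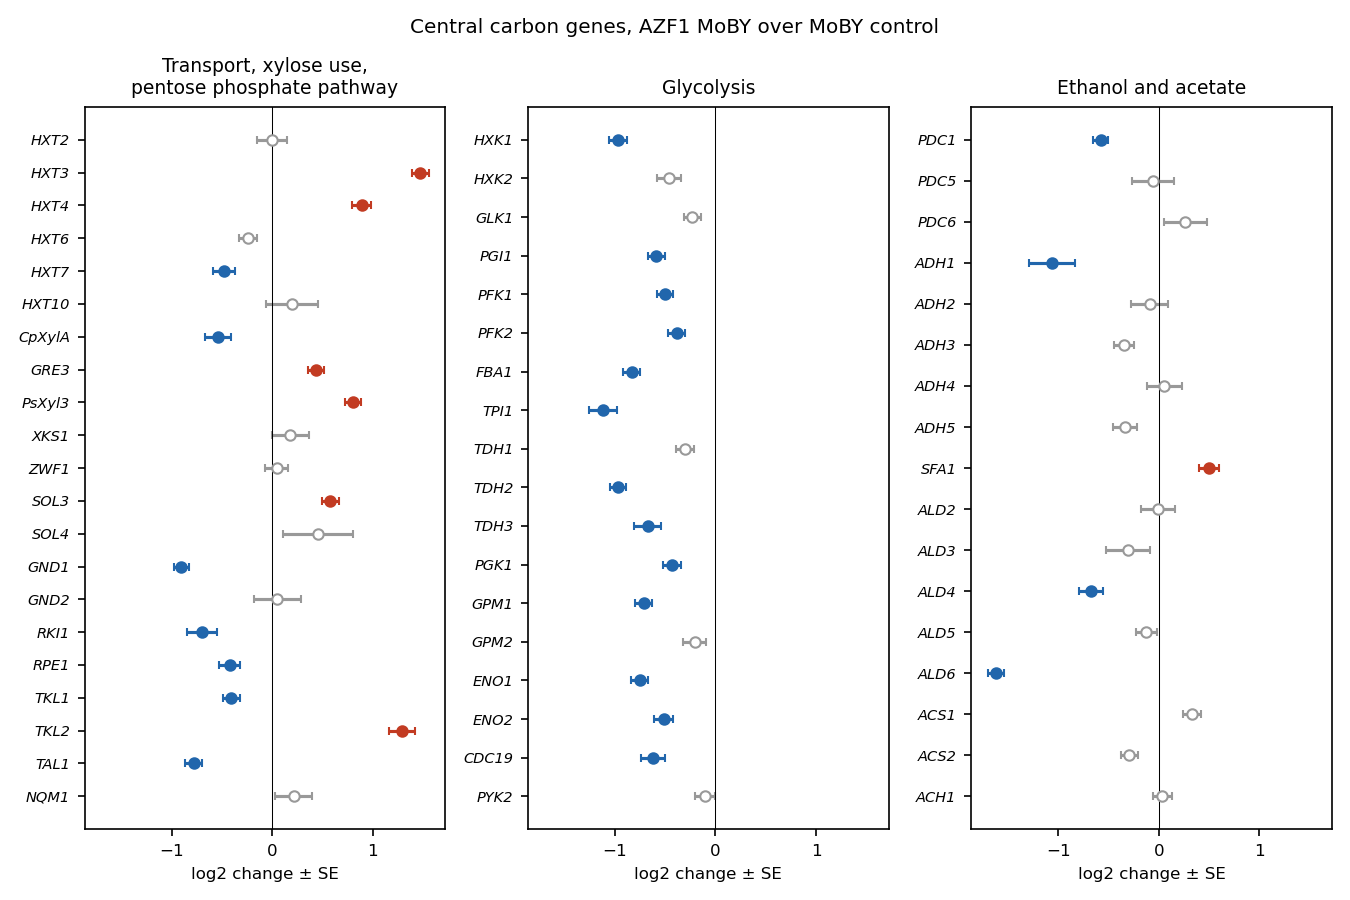
Change in log2(RPKM + 1) ± SE (n = 2 and 2) of central carbon genes; filled red and blue points rose and fell, open grey points did not pass the test. Glycolytic genes lie left of 0 throughout (median −0.55), whereas *HXT3*, *HXT4* and *TKL2* lie to the right.

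Of 19 genes of gluconeogenesis and the glyoxylate route 4 rose (21.1%, beside 16.4% of all genes): the regulators *ADR1* (0.56 ± 0.11) and *SIP4* (0.87 ± 0.14), the carnitine carrier gene *CRC1* (0.88 ± 0.20) and *DAL7*, a malate synthase gene (0.65 ± 0.13). These 4 calls became 2 without the variance trend and 1 with the replicate block. *MDH2*, the cytosolic malate dehydrogenase gene and a reported Azf1 target, stood at 12.4 and 10.6 RPKM in MoBY control and 12.6 and 11.5 RPKM in *AZF1* MoBY (change 0.06 ± 0.15). In the TCA cycle *LPD1*, *LSC1*, *MDH1* and *LAT1* fell, by 0.57, 0.46, 0.40 and 0.38, of 21 genes tested (19.1%, beside 16.4% of all genes). The change was negative in 20 of the 21 (median −0.29), and 12 had an unadjusted p under 0.05. The 4 calls became 0 without the variance trend and with the replicate block. No nuclear gene of the respiratory chain and ATP synthase passed the limma test (0 of 33, 9 at an unadjusted p under 0.05, median −0.12). With all 8 libraries in the fit 9 passed, and with the block and the length and GC correction 2 did. The median was −0.39 without *AZF1* MoBY A and 0.05 without *AZF1* MoBY B.

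The mitochondrial genome stood apart from the nuclear chromosomes. All 15 of its genes tested had a negative change (median −0.43), whereas the medians of the 16 nuclear chromosomes lay between −0.05 and 0.07. *COX3*, a cytochrome oxidase subunit gene named here after its values were seen, went from 680 and 588 RPKM to 431 and 437 RPKM (change −0.54 ± 0.10, adjusted p = 0.019). *COX2* fell by 0.67 ± 0.13 and *ATP6* by 0.48 ± 0.11, while *COB*, with 120 and 81.0 RPKM in MoBY control and 99.7 and 94.4 RPKM in *AZF1* MoBY, changed by −0.03 ± 0.19. Of the 15 genes 4 fell (26.7%, beside 16.4% of all genes), and the call of *ATP6* was lost under 5 of the 9 alternatives.

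Heat shock proteins and chaperones rose most broadly, with 21 of 28 genes higher and none lower (median change 0.87). *HSP26*, a small heat shock protein gene, stood at 63.6 and 55.3 RPKM in MoBY control A and B and at 164 and 171 RPKM in *AZF1* MoBY A and B. The groups did not overlap, and the change was 1.48 ± 0.10 (adjusted p = 0.0022). *SSA3*, a stress-inducible Hsp70 gene, rose from 111 and 115 RPKM to 274 and 271 RPKM (change 1.26 ± 0.08). *BTN2*, whose protein gathers misfolded proteins, rose by 1.22 ± 0.17, and *HSP30*, a plasma membrane heat shock protein gene, by 1.17 ± 0.13. A further 2 members were chosen after their values were seen: *SSA4*, the other stress-inducible Hsp70 gene, went from 322 and 380 RPKM to 744 and 755 RPKM, and *HSP104*, the disaggregase gene, from 396 and 498 RPKM to 861 and 826 RPKM. The gene of the heat shock factor itself, *HSF1*, did not pass the test (−0.25 ± 0.13). In the same libraries *kanR* was lower, as given above, and whether its level is linked to these rises was not tested.

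Of the 8 genes of the cytosolic CCT chaperonin 0 passed the limma test and 3 had an unadjusted p under 0.05 (median −0.34). In the endoplasmic reticulum *ERO1*, the oxidase that drives disulfide formation, rose from 169 and 190 RPKM to 338 and 355 RPKM (change 0.95 ± 0.09), while the disulfide isomerase gene *EUG1* fell by 0.68 ± 0.08. Among 33 proteasome genes 1 rose and 2 fell (9.1%, beside 16.4% of all genes). *RPN4*, the proteasome transcription factor gene, rose by 0.45 ± 0.09, and the core subunit genes *PRE1* and *PUP1* fell by 0.59 and 0.43.

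Of 23 genes of general stress defense 5 rose and 1 fell (26.1%, beside 16.4% of all genes). *GRE1* rose from 7.46 and 9.51 RPKM to 22.6 and 29.9 RPKM (change 1.52 ± 0.19), *XBP1*, a stress-induced repressor of cyclin genes, from 40.5 and 41.4 RPKM to 100 and 94.4 RPKM (change 1.23 ± 0.09), and *HOR7* by 1.10 ± 0.10. The fall was that of *HXK1*, described above. *MSN2* and *MSN4*, which encode the general stress activators, changed by −0.35 ± 0.12 and −0.36 ± 0.11 and did not pass the test. All 5 regulators listed from the study, *MSN2*, *MSN4* and *MTH1* among them, had a negative change (median −0.36). Each had an unadjusted p under 0.05. Of the 5, 1 passed the test, 4 did with all 8 libraries in the fit and 0 did without the variance trend. No antioxidant gene rose, and *TRX1* and *HYR1* fell by 0.81 and 0.52 of 24 tested (8.33%, beside 16.4% of all genes). The *HYR1* call was kept under 3 of the 9 alternatives. For trehalose 1 gene of 7 rose (14.3%), *TSL1* by 0.71 ± 0.09, and for glycogen 1 of 16 fell (6.25%), *GSY1*. Both shares were under the 16.4% of all genes.

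Cell wall genes came next, with 21 of 41 higher and 4 lower (median change 0.43), and 13 of these 41 passed without the variance trend. Besides *ANS1* and *CWP1*, *PIR3*, a wall protein gene of the Pir family, rose from 5.70 and 4.76 RPKM to 14.2 and 15.5 RPKM (change 1.35 ± 0.16). *SPI1*, a GPI-anchored wall protein gene, rose from 153 and 141 RPKM to 355 and 370 RPKM (change 1.29 ± 0.09). The yapsin protease gene *YPS1*, the chitin synthase gene *CHS1* and the glucan synthase gene *GSC2* rose by 1.12, 1.01 and 0.64. The falls were the wall protein gene *TOS6*, from 47.5 and 63.1 RPKM to 31.3 and 22.9 RPKM, the glucan-remodelling gene *GAS1* (−0.42 ± 0.09), and *SUN4* and *SIM1* of the SUN family (−0.51 ± 0.10 and −0.34 ± 0.08).

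The cell wall integrity pathway signals wall stress from membrane sensors through a MAP kinase. Of its 19 genes 4 rose and none fell (21.1%, beside 16.4% of all genes), while 10 of the 19 changes were negative (median −0.14). The rises were the sensor genes *MID2* (0.82 ± 0.09) and *MTL1* (0.64 ± 0.14), the MAP kinase gene *SLT2*, from 57.7 and 69.1 RPKM to 109 and 107 RPKM (0.77 ± 0.11), and the transcription factor gene *RLM1* (0.53 ± 0.13). *MID2* overlaps another annotated gene. Of 31 protein glycosylation genes 2 rose and 6 fell (25.8%, beside 16.4% of all genes, median −0.15), *PMI40* and *SEC53* of mannose activation falling by 0.85 and 0.67. No flocculin gene passed the limma test (0 of 9, 1 at an unadjusted p under 0.05).

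Drug pumps and their regulators rose in 10 of 20 cases and fell in 1. *TPO2*, a polyamine exporter gene, went from 65.8 and 61.8 RPKM to 145 and 165 RPKM (change 1.27 ± 0.10), with the reservation that *TPO3* is nearly identical. *PDR12*, the pump of weak organic acids, rose by 1.13 ± 0.09, *TPO4* by 1.10 ± 0.09 and *PDR10* by 1.06 ± 0.09. *AQR1*, an exporter gene of the plasma membrane, was the one to fall (−0.47 ± 0.11).

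Metal uptake genes rose in part. Of 21 genes of iron uptake 6 rose and none fell (28.6%, beside 16.4% of all genes, median 0.45). *FIT1* and *FIT3*, mannoproteins that hold iron carriers in the wall, rose by 1.56 ± 0.22 and 1.52 ± 0.31, and here the libraries with extra *AZF1* differed widely from each other: *FIT3* stood at 68.6 and 56.1 RPKM in MoBY control and at 251 and 129 RPKM in *AZF1* MoBY. The reductase genes *FRE3* and *FRE1* rose by 1.40 ± 0.13 and 0.75 ± 0.10. *ZRT1*, the high-affinity zinc transporter gene, added after its value was seen, went from 644 and 635 RPKM to 1687 and 1746 RPKM (change 1.42 ± 0.08, adjusted p = 0.0022). Of 26 phosphate genes 3 rose and 1 fell (15.4%, beside 16.4% of all genes, median −0.007). The sodium-coupled transporter gene *PHO89* rose from 36.3 and 34.5 RPKM to 74.0 and 67.2 RPKM. *PHO90* and *PHO91* rose by 0.42 and 0.45, and the acid phosphatase gene *PHO5* fell by 0.82 ± 0.09. The *PHO91* call was kept under 5 of the 9 alternatives.

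For nitrogen, 7 of 25 catabolic genes rose and 1 fell (32%, beside 16.4% of all genes). *MEP2*, the high-affinity ammonium permease gene, rose from 55.3 and 50.9 RPKM to 140 and 139 RPKM (change 1.38 ± 0.09, adjusted p = 0.0022). *MEP1*, a second ammonium permease gene, rose by 1.16 ± 0.10, *ARO10*, a decarboxylase gene of aromatic amino acid breakdown, by 1.16 ± 0.10 and *PUT1*, the proline oxidase gene, by 1.07 ± 0.14. Among amino acid permeases *BAP2* and *CAN1* rose by 0.85 and 0.71, and *DIP5* and *GNP1* fell by 0.66 and 0.61. Of 34 autophagy genes 5 rose and none fell, a share (14.7%) near that of all genes (16.4%): *ATG5* went from 124 and 115 RPKM to 280 and 290 RPKM (change 1.25 ± 0.08), and *ATG40* and *ATG41* rose by 1.18 and 1.11.

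Of 69 genes of amino acid synthesis 18 fell and 4 rose, 22 in all (31.9%), against 12 without the variance trend. *GDH1*, the glutamate dehydrogenase gene that fixes ammonium, fell from 440 and 461 RPKM to 226 and 236 RPKM (change −0.96 ± 0.08), and *ILV5* of branched-chain synthesis fell by 0.88 ± 0.12. *ARO9*, an aromatic aminotransferase gene, rose by 1.39 ± 0.15 and *HIS6* by 1.29 ± 0.22. In sulfate use *SUL1* (sulfate permease), *MET3* and *MET17* fell by 0.98, 0.69 and 0.64, while *SAM1* rose by 0.71. Of 29 genes of purine and pyrimidine synthesis 5 rose and 2 fell (24.1%, beside 16.4% of all genes, median 0.16). The purine genes *ADE17* and *ADE12* were up by 0.61 and 0.55 and *URA5* was down by 0.53. The 7 calls became 0 without the variance trend, 3 without the filter and 4 with the replicate block. The vitamin B6 genes *SNZ1* and *SNO1* rose by 0.90 and 1.07. In NAD synthesis only *BNA1* of 16 genes changed, by −1.42 ± 0.24 from 6.50 and 10.2 RPKM to 2.43 and 2.41 RPKM.

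Of 30 ergosterol genes 4 rose and none fell (13.3%, beside 16.4% of all genes), led by *ARE2* (sterol esterification, 0.99 ± 0.10) and *ERG5* (0.72 ± 0.15). *HEM13*, the oxygen-dependent heme synthesis gene known as a marker of low oxygen, fell from 2957 and 2817 RPKM to 1898 and 1938 RPKM (change −0.59 ± 0.09), and *HEM15* rose by 0.48 ± 0.09. The 21 hypoxic genes listed by the study did not move together. Of them 3 rose and 2 fell (23.8%, beside 16.4% of all genes, median 0.05), and 0 passed without the variance trend. *ANB1* and *FRD1* fell by 0.62 and 0.51, while *PAU17* and *PAU24* were among the rises. Of 21 *PAU*, *DAN* and *TIR* genes 4 rose and 1 fell (23.8%, beside 16.4% of all genes), but most *PAU* genes share near-identical copies and their values are uncertain. These 5 calls became 0 without the filter, 1 with median-ratio rescaling and 1 without the variance trend.

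The translation machinery fell. Of 123 cytosolic ribosomal protein genes 86 fell and none rose (median change −0.70). *RPL22A* went from 282 and 355 RPKM to 149 and 144 RPKM (change −1.11 ± 0.13, adjusted p = 0.0051), while its paralog *RPL22B*, at 67.7 and 61.0 RPKM in MoBY control and 51.3 and 44.3 RPKM in *AZF1* MoBY, did not pass the test (−0.42 ± 0.12). Of 18 tRNA synthetase genes 12 fell and none rose (median −0.48), among them *GUS1*, *DPS1*, *GRS1* and *CDC60* by 0.62 to 0.67. For translation factors the count was 12 of 36, with *TEF4* down by 0.74, and it became 2 where the variance trend was left out, a setting under which the ribosomal protein and tRNA synthetase counts became 51 and 5.

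The assembly of ribosomes showed much less. Of 94 ribosome biogenesis genes 7 fell and none rose (7.4%, beside 16.4% of all genes, median −0.10), led by *NOP56* (−0.84 ± 0.15) and *HAS1* (−0.81 ± 0.11). RNA polymerase I subunit genes *RPA190* and *RPA135* fell by 0.67 and 0.50, and *RRN10*, a polymerase I factor gene, rose by 0.83 ± 0.14. Mitochondrial ribosomal protein genes fell in 3 of 66 cases (4.5%, beside 16.4% of all genes).

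Of 15 genes of G1 and Start 2 rose and 5 fell. *CLN3*, the G1 cyclin gene that starts the cycle and a reported Azf1 target, rose from 52.4 and 51.6 RPKM to 76.6 RPKM in both *AZF1* MoBY libraries (change 0.55 ± 0.09, adjusted p = 0.013). The later G1 cyclin genes *CLN1* and *CLN2* fell by 0.72 and 0.65 and *PCL1* by 0.66. *WHI5* and *NRM1*, which encode repressors of G1 transcription, fell by 0.99 ± 0.21 and 1.24 ± 0.22, at levels under 10 RPKM in all 4 libraries. Of the mitotic genes *CLB2* fell, from 19.7 and 32.7 RPKM to 12.6 and 11.6 RPKM (change −1.01 ± 0.24, adjusted p = 0.042), a call that was lost without the filter, without the variance trend and with the replicate block, and 20 of the 21 did not pass the test (4.76% passed, beside 16.4% of all genes).

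Genes expressed in daughter cells and at cell separation fell in 6 of 12 cases with none higher (median −0.47), and 3 passed without the variance trend. *DSE1* went from 20.3 and 27.3 RPKM to 11.4 RPKM in both *AZF1* MoBY libraries (change −0.98 ± 0.17), *AMN1* from 35.3 and 33.6 RPKM to 18.0 and 17.0 RPKM, and *EGT2*, *ASH1*, *CTS1* (chitinase) and *DSE2* fell by 0.43 to 0.60. Of 8 histone genes *HTA2*, *HTB2* and *HHF2* fell. *RNR1* and *RNR4* of ribonucleotide reductase fell as well (−0.78 and −0.64). They were the 2 of 28 S phase genes that passed the test (7.14%, beside 16.4% of all genes). In bulk RNA, fewer cells at a stage of the cycle and less RNA per cell cannot be told apart.

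The Ras and protein kinase A pathway, which *IRA2* restrains, had 3 of 17 genes higher and none lower. This share of 17.65% is near the 16.4% of all genes, and 10 of the 17 changes were negative (median −0.04). *IRA2* went from 218 and 204 RPKM to 410 and 391 RPKM (change 0.92 ± 0.08, adjusted p = 0.0032), a change in the transcript of an allele that is not functional in Y128. *CYR1* (adenylate cyclase) and *PDE2* (cAMP phosphodiesterase) rose by 0.73 each. Of the other genes whose function Y128 lacks, *GRE3* rose (0.44 ± 0.08, as given above). Neither *ISU1* (0.40 ± 0.17) nor *HOG1* (0.04 ± 0.10) passed the test.

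The empty plasmid strain was also compared with the plasmid-free WT, a comparison that shares the MoBY control libraries and in which 1422 of 5991 genes passed the test (23.7%). In it 24 chaperone genes were higher and 1 lower (median 2.08), 20 cell wall genes were higher and 7 lower (median 0.42), and 13 drug pump genes were higher (median 0.64). Lower in MoBY control than in WT were 13 glycolytic genes (median −0.65), 68 ribosomal protein genes (median −0.57) and 10 tRNA synthetase genes (median −0.39). Of the separation genes 1 was higher and none lower. *HXT3* stood at 15.6 and 14.2 RPKM in WT, *HXT4* at 19.0 and 19.7 RPKM, *HSP26* at 6.23 and 7.11 RPKM and *MEP2* at 10.7 and 10.3 RPKM, all under their MoBY control values above. The changes from WT to MoBY control were 5.04 for *HXT3*, 2.79 for *HXT4*, 2.98 for *HSP26* and 2.24 for *MEP2*. *ALD6* stood at 340 and 313 RPKM and *TPI1* at 2419 and 2257 RPKM in WT, above MoBY control. *AZF1* (13.2 and 11.6 RPKM), *CEX1* (10.9 and 11.9 RPKM) and *DSE1* (21.3 and 20.4 RPKM) were at much the level of MoBY control in WT. Plasmid and G418 come together in this comparison and cannot be told apart.

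Against WT, deletion of *AZF1* passed the test in 103 of 5944 genes (1.73%), in libraries that neither plasmid group shares. *HXT4* and *HSP26* were higher in *azf1Δ* (by 1.69 and 0.79), as they were with extra *AZF1*. *BNA1*, *DIP5* and *MFA2* were higher in *azf1Δ* (by 0.90, 0.50 and 0.76) and lower with extra *AZF1*, and *BAP2* and *PHO90* were lower in *azf1Δ* (by 0.47 and 0.57) and higher with it. *MIG3* did not pass the test in *azf1Δ*, though its value there lay below WT (−1.41, adjusted p = 0.072). *CLN3* and *ALD6* changed by −0.16 and −0.20 in *azf1Δ*, neither of them past the threshold.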

How the data were processed

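Per the labels and methods, reads were trimmed by the authors (Trimmomatic 0.3.0), aligned to the Y22-3 genome (Bowtie2 2.2.2) and assigned to genes (HTSeq 0.6.0). Whether counting used strand is not given in the sources used here. The deposited table holds log2 RPKM values, to 2 decimals, of 6328 genes in 8 libraries that were not pooled, made by the authors from counts that were not used here.

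Values were returned to RPKM and compared as log2(RPKM + 1), which understates changes of low genes, with limma 3.58.1 (lmFit, eBayes with a variance trend) in R 4.3.3. The fit held the 4 plasmid libraries and no covariate. Groups and replicate letters came from the labels. On simulated data of 5988 genes with 200 changed, 98% of 2-fold and 68% of 1.5-fold changes were recovered, with 8 false calls. The simulated spread was a smooth function of level alone, and changes were placed only in genes above a minimum level. Such data meet the assumption of the variance trend, so these rates may not hold for the real libraries.

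Depth was read from low values, 85.7% to 87.3% of which were within 0.15 of a whole number of reads in these 4 libraries. RefSeq R64 gave names, coding lengths, overlaps and promoter windows, and copies with 90% identity or more were found with BLAST 2.17.0. Figures were drawn with matplotlib 3.10.9.

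Alternatives were no filter, a pseudocount of 0.1 RPKM, median-ratio rescaling, no variance trend, all 8 libraries in the fit, the replicate letter as a block, a length and GC correction, both together, genes with a RefSeq entry and no overlap, and leaving out each library.

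Comparison, gene lists and tests were chosen with earlier results of these data known. Named were *AZF1*, 8 neighbours, *kanR*, *CpXylA* and *PsXyl3*, the 10 largest rises and falls among genes that passed the test with a RefSeq entry, no overlap and 10 RPKM or more, up to 4 members that passed it per list (all members of lists of 12 or fewer), and *HAP4*, *MSN2*, *MSN4*, *MTH1*, *MGA2*, *CLN3* and *MDH2*, not all of which are described. Named after their values were seen were *ISU1*, *HOG1*, *STE3*, *HXT6*, *TDH3*, *SFA1*, *COX2*, *COX3*, *ATP6*, *COB*, *SSA4*, *HSP104*, *HSF1*, *CHS1*, *GSC2*, *TOS6*, *GAS1*, *SUN4*, *SIM1*, *CLN2*, *PCL1*, *AQR1*, *ZRT1*, *RPL22B*, *CTS1* and *DSE2*.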

Additional observations from a re-analysis of the deposited data

How the results depend on the processing

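The direction of the *AZF1* change and of all named genes that passed the test was kept under every alternative run. The count of 988 changed genes (616 higher, 372 lower) became 599 (434 and 165) with no variance trend, 758 with no filter, 890 with median-ratio rescaling, 979 with a pseudocount of 0.1 RPKM and 1440 (782 and 658) with all 8 libraries in the fit. At an adjusted p under 0.01 it was 323 (246 and 77). Replicate letters were not taken to pair the libraries, because no source used here ties a letter to a shared day and the deviations of the 2 same-letter pairs correlated at −0.0135, and with the letter as a replicate block 674 genes passed (449 and 225). With the length and GC correction 986 genes passed (564 and 422), and with the block as well 886. Leaving out 1 library gave 0 to 527 changed genes, 0 to 332 higher and 0 to 195 lower, and put the *AZF1* change between 2.29 and 2.39, past the threshold without a MoBY control library (adjusted p = 0.037 and 0.044) and not without an *AZF1* MoBY library (adjusted p = 0.12 and 0.13), where a group of 1 is assumed to vary like the other. The change of *COB* ran from −0.31 to 0.26, that of *MDH2* from −0.037 to 0.17 and that of *HOG1* from −0.0098 to 0.098 when 1 library was left out, and none of these passed the test. Of the 157 named genes that passed the test besides *AZF1*, 108 still did with no variance trend, 124 with no filter and 120 with the replicate block. List medians that changed sign were at most 0.12 in size. At about 6180000 to 6890000 reads, genes of a few RPKM rest on few reads, which limits their precision.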
